A study of Homo sapiens with 5 samples.

Results

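The BCL2 family genes followed here were 10 genes of the mitochondrial cell death pathway, chosen by symbol: the pro-survival genes BCL2, BCL2L1, BCL2L2 and MCL1, the effectors BAX and BAK1, and the BH3-only genes BID, BCL2L11, BBC3 and PMAIP1. All 10 were found among the 13822 genes of the expression table, and all 10 passed the filter on low values that left 12245 genes to be tested. The samples were RH4 cells, a line of alveolar rhabdomyosarcoma (ARMS), a muscle-like childhood tumour. Cells received 30 nM of a control siRNA (si-SCR, n = 3) or of a single custom siRNA against the back-splicing junction of the circular RNA circVAMP3 (si-circVAMP3, n = 2), with fresh medium at 24 h and collection of the cells 24 h later. Poly-A+ RNA was sequenced, and levels are given as FPKM, which is fragments per kilobase of gene, scaled to the reads counted in the sample.

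Proteins of the BCL2 family decide whether the outer membrane of the mitochondrion stays closed. BAX and BAK1 form the pores, the pro-survival proteins hold them in check, and the BH3-only proteins are stress-induced ligands that occupy the pro-survival proteins or switch on the effectors directly. Cancer cells often lean on one pro-survival protein, and which one differs between tumours, so the balance of these mRNAs is of interest when a survival pathway is perturbed.

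The siRNA sequence shows what was targeted, and is printed 5′ to 3′ with capitals for the part that lies in exon 3 of VAMP3, lower case before it for the end of exon 4, and a lower case uu overhang:
si-circVAMP3: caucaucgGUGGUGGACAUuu
Of its 19 bases without the overhang, 8 matched the end of exon 4 (chr1:7778118-7778169) and 11 matched the start of exon 3 (chr1:7777160-7777318) on the plus strand of GRCh38, an order that a circle of 211 bases makes and that the canonical linear transcript does not contain. Poly-A+ RNA counted by gene measures the linear VAMP3 mRNA and not the circle, so the knock-down of circVAMP3 itself cannot be read from this table. Linear VAMP3, which encodes a vesicle fusion protein, stood at 36.4, 35.4 and 37.4 FPKM in the si-SCR samples and at 29.4 and 30.2 FPKM in the si-circVAMP3 samples. Both knock-down samples lay below every control, with a log2 fold change of -0.29 (SE 0.043, limma adjusted p = 0.00496). Without si-circVAMP3 replicate 1 the limma adjusted p was 0.0507, the highest over 14 alternatives, whose lowest was 0.00289.

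The label of the cells was checked against markers of the tumour and of other cell types. All 8 rhabdomyosarcoma markers were in the table, and DES, the muscle intermediate filament, was the most abundant at 248 to 291 FPKM. Markers of epithelial and immune cells were not among the genes of the table, and the 3 of 5 fibroblast markers that were there summed to at most 1.87 FPKM. Of the 8 tumour markers 2 passed the threshold (25.0%, beside 30.4% of all genes tested), both lower (beside 15.8%), and 6 did not. The median log2 fold change of the 8 was -0.18. Only 1 of them had a positive value, MYOD1 at 0.20 (limma adjusted p = 0.315). MYOG, the myogenin transcription factor, fell from 168 ± 16 FPKM (SD, n = 3) to 98.6 ± 2.9 FPKM (SD, n = 2; limma adjusted p = 0.00156), and CHRNG, the fetal acetylcholine receptor subunit, fell from 13.9 ± 0.18 to 9.06 ± 0.40 FPKM (limma adjusted p = 0.000759). The summed level of the 8 markers was 1021, 1003 and 856 FPKM in the controls and 818 and 836 FPKM in the knock-down, and its part in the changes of the BCL2 family was not tested. In bulk RNA, a change in the share of cells that hold an mRNA and a change in the amount per cell cannot be told apart.

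The depth behind each value was read from the table itself, because FPKM values are whole reads multiplied by a constant of the gene and the sample. The reads recovered in this way summed to 25328147, 23986841 and 23883267 in the si-SCR samples and to 17886906 and 27732896 in the si-circVAMP3 samples. They are the smallest whole numbers in the ratio of a gene's values. A gene whose counts share a common factor is thus counted too low, and the sums are lower limits. BBC3 rested on 53 to 117 reads per sample and BCL2 on 274 to 583, and every other member had at least 511 reads in each sample. Control replicate 3 stood somewhat apart: across the genes tested its log2 levels correlated at 0.9933 and 0.9948 with the other controls, which correlated at 0.9971 with each other, and the knock-down samples correlated at 0.9968.

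After circVAMP3 knock-down 1 of 4 pro-survival genes was higher and 1 was lower, 3 of 4 BH3-only genes were higher, and neither effector showed a difference past the threshold. Of the 10 members, 5 passed the threshold of 0.05 on the limma adjusted p: BCL2L1, PMAIP1, BCL2L11 and BID were higher in si-circVAMP3 and BCL2L2 was lower. Across all genes tested, 3723 of 12245 (30.4%) passed, 1784 (14.6%) higher and 1939 (15.8%) lower, a balance that turned to 2004 higher and 1690 lower when each sample was centred on its median. The number over all genes fell to 2199 without si-SCR replicate 2, to 1305 without si-circVAMP3 replicate 1 and to 1260 without si-circVAMP3 replicate 2, and the number of members fell to 3 in each of these cases and to 4 without si-SCR replicate 1 or 3. No member had an absolute log2 fold change over 0.58, the fold limit the study set, which 3.81% of all genes tested passed together with the p threshold, 1.09% higher and 2.72% lower. The 14 alternatives counted below for single genes leave this fold limit aside. The groups did not overlap for 8 of 10 members, against 58.5% of all genes tested: 5 members lay above the controls, against 29.5%, and 3 lay below, against 28.9%.

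**Figure D1:**
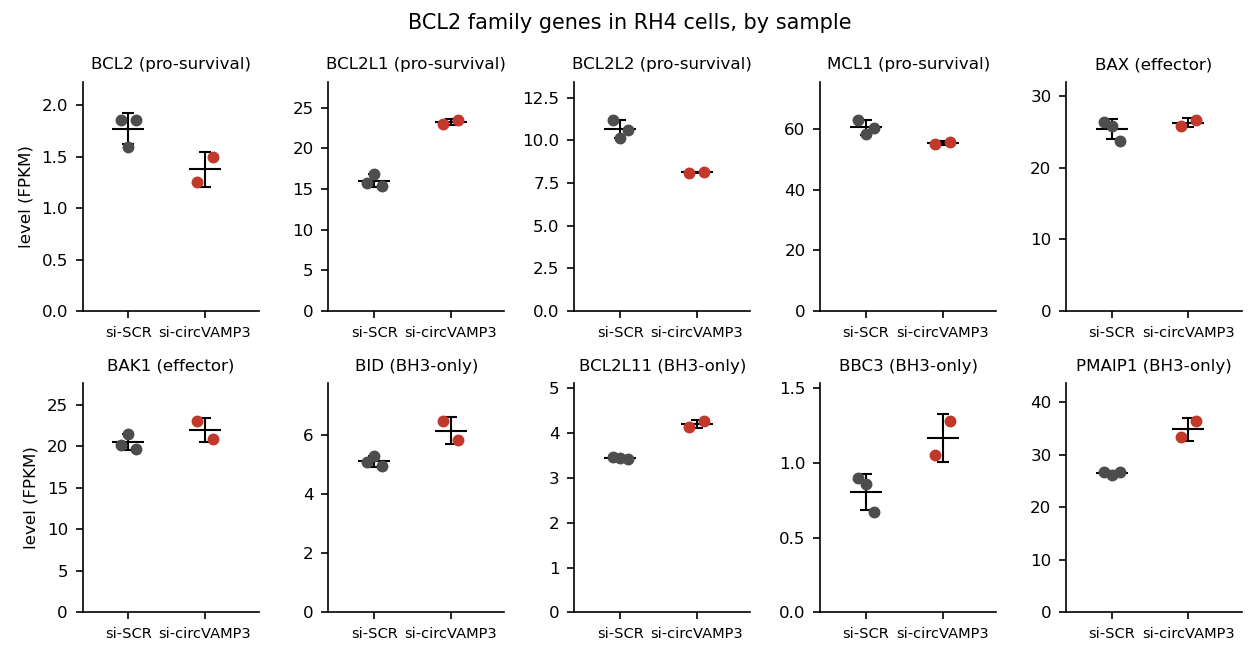
Level of each of the 10 BCL2 family genes in FPKM, on axes that start at 0, in the 3 si-SCR samples (grey points) and the 2 si-circVAMP3 samples (red points), with the mean (long dash) and SD (bars). BCL2L1 and PMAIP1 lie higher and BCL2L2 lower in both knock-down samples, while the BAX and BAK1 points of the groups overlap.

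In the control cells MCL1 was the most abundant member at 60.6 ± 2.4 FPKM (SD, n = 3), above 94.5% of the genes tested by its mean over all samples. PMAIP1 at 26.6 and BAX at 25.4 FPKM followed and overlapped each other. Then came BAK1 at 20.5, BCL2L1 at 16.0, BCL2L2 at 10.7, BID at 5.13, BCL2L11 at 3.44, BCL2 at 1.77 and BBC3 at 0.807 FPKM, each above the next in every control sample. BCL2, the founder of the family, was thus a low transcript in RH4 cells, above 17.8% of the genes tested. In the knock-down samples the order was the same except that BCL2L1 stood before BAK1, which it overlapped, while PMAIP1 lay above BAX in both samples and BCL2 overlapped BBC3.

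Among the pro-survival genes, BCL2L1 rose and BCL2L2 fell. BCL2L1 encodes BCL-XL and lies on the minus strand at chr20:31664452-31723989 (GRCh38, as are all positions here). It measured 15.8, 16.9 and 15.3 FPKM in the controls and 23.0 and 23.5 FPKM in the knock-down. Both knock-down samples were far above the highest control, with a ratio of means of 1.45 and a log2 fold change of 0.53 (95% interval 0.40 to 0.66, limma adjusted p = 0.00136). This was the largest absolute log2 fold change of the 10 members on log2(FPKM + 0.5), while on the recovered reads weighted by depth BBC3 stood at 0.56 and BCL2L1 at 0.54. Its count per gene joins the spliced forms, so the long, protective form and the short, death-promoting form were not told apart.

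BCL2L2 encodes BCL-W, a close relative of BCL-XL, at chr14:23298790-23311751 on the plus strand. Its level was 11.2, 10.1 and 10.6 FPKM in the controls and 8.10 and 8.16 FPKM in the knock-down. The knock-down samples were nearly equal and lay below every control, with a log2 fold change of -0.37 (95% interval -0.51 to -0.23, limma adjusted p = 0.00538). Of its exon length, 16.8% is shared on the same strand with the readthrough gene BCL2L2-PABPN1, and reads in the shared part could not be given to either gene by the counting used, so its level is less certain than that of the others.

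MCL1 encodes a short-lived pro-survival protein and lies at chr1:150560895-150579738 on the minus strand. It measured 63.1, 58.3 and 60.5 FPKM in the controls and 55.0 and 55.9 FPKM in the knock-down. The groups did not overlap, but the log2 fold change was small at -0.13 (95% interval -0.24 to -0.02) and the limma adjusted p of 0.0790 missed the threshold. BCL2, at chr18:63123346-63320128 on the minus strand, measured 1.86, 1.60 and 1.86 FPKM in the controls and 1.26 and 1.50 FPKM in the knock-down. These groups did not overlap either, and its log2 fold change of -0.28 (95% interval -0.51 to -0.05) had a limma adjusted p of 0.0698. When the recovered reads were weighted by their depth the BCL2 value was -0.34 with a limma adjusted p of 0.0368, the lowest over 14 alternatives, whose highest was 0.335.

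The summed pro-survival level differed little between the groups, the higher BCL2L1 level standing against lower mean levels of the other 3 genes, of which only BCL2L2 passed the threshold. The sum of the 4 genes was 92.0, 86.9 and 88.3 FPKM in the controls and 87.4 and 89.1 FPKM in the knock-down, and the groups overlapped. Its make-up differed: BCL2L1 made up 17.2%, 19.4% and 17.4% of the sum in the controls and 26.3% and 26.4% in the knock-down. MCL1 made up 68.1% ± 0.87 (SD, n = 3) in the controls and 62.9% ± 0.15 (SD, n = 2) in the knock-down, and BCL2L2 12.0% ± 0.26 and 9.22% ± 0.078. The level of BCL2L1 relative to BCL2L2 went from 1.41, 1.67 and 1.44 in the controls to 2.84 and 2.88 in the knock-down. These shares and ratios are descriptions, since they combine members whose own tests are given above.

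**Figure D2:**
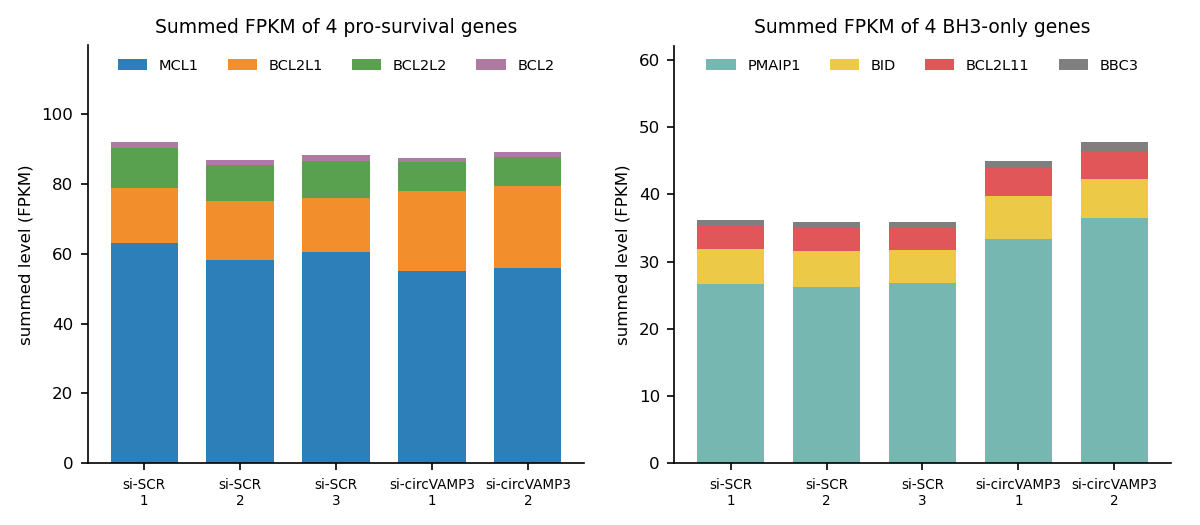
Summed level in FPKM, one stacked bar per sample, of the 4 pro-survival genes (left) and the 4 BH3-only genes (right), each colour standing for one gene and both axes starting at 0. The pro-survival sum lies between 86.9 and 92.0 FPKM in all samples with a larger BCL2L1 part in si-circVAMP3, and the BH3-only sum lies at 35.8 to 36.2 FPKM in si-SCR and at 45.0 and 47.8 FPKM in si-circVAMP3.

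The effectors showed no difference past the threshold. BAX, at chr19:48954815-48961798 on the plus strand, measured 26.4, 25.9 and 23.8 FPKM in the controls and 25.8 and 26.7 FPKM in the knock-down. BAK1, at chr6:33572547-33580293 on the minus strand, measured 20.2, 21.5 and 19.7 FPKM in the controls and 23.0 and 20.9 FPKM in the knock-down. For both genes the groups overlapped. The log2 fold change was 0.05 for BAX (95% interval -0.08 to 0.19, limma adjusted p = 0.534) and 0.10 for BAK1 (95% interval -0.05 to 0.25, limma adjusted p = 0.268), so the intervals leave room for a small rise and little room for a fall.

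All 4 BH3-only genes had both knock-down samples above every control, and 3 of them passed the threshold. For comparison, 29.5% of all genes tested had every si-circVAMP3 sample above every si-SCR sample. PMAIP1 encodes NOXA, which binds chiefly MCL1, and lies at chr18:59899996-59904305 on the plus strand. It measured 26.7, 26.2 and 26.8 FPKM in the controls, a narrow range, and 33.3 and 36.4 FPKM in the knock-down. The ratio of means was 1.31 and the log2 fold change 0.38 (95% interval 0.26 to 0.50, limma adjusted p = 0.00293). Set against MCL1, the PMAIP1 level was 0.424, 0.450 and 0.444 of it in the controls and 0.606 and 0.652 of it in the knock-down.

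BCL2L11 encodes BIM, which binds all the pro-survival proteins and can activate BAX and BAK1, and lies at chr2:111119378-111168444 on the plus strand. It measured 3.48, 3.44 and 3.42 FPKM in the controls and 4.14 and 4.27 FPKM in the knock-down. The rise was modest but well outside the spread of the controls, with a log2 fold change of 0.25 (SE 0.059, limma adjusted p = 0.0200). The call was lost without si-SCR replicate 2 (limma adjusted p = 0.0692), without si-circVAMP3 replicate 1 (0.0938) and without si-circVAMP3 replicate 2 (0.127), and over its 14 alternatives the adjusted p ran from 0.00988 to 0.127.

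BID encodes the BH3-only protein that caspase-8 cleaves to link death receptors to mitochondria, at chr22:17734138-17774770 on the minus strand. It measured 5.10, 5.32 and 4.96 FPKM in the controls and 6.48 and 5.83 FPKM in the knock-down, with a log2 fold change of 0.24 (SE 0.067, limma adjusted p = 0.0363). Its call was the least firm of the 5 and was lost whichever sample was left out: the limma adjusted p was 0.0754, 0.0727 and 0.0526 without si-SCR replicates 1, 2 and 3, and 0.224 and 0.0704 without si-circVAMP3 replicates 1 and 2, and its lowest value over 14 alternatives was 0.0298.

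BBC3 encodes PUMA, a broad binder of the pro-survival proteins, at chr19:47220822-47232766 on the minus strand. It measured 0.896, 0.856 and 0.668 FPKM in the controls and 1.05 and 1.28 FPKM in the knock-down. The ratio of means, 1.44, was close to that of BCL2L1, but the gene rested on few reads and the limma adjusted p of 0.0564 missed the threshold. Its log2 fold change of 0.35 (SE 0.11) was taken on log2(FPKM + 0.5) and understates the change of so low a gene. The adjusted p of BBC3 ran from 0.0388 to 0.283 over 13 alternatives, and it passed under median-centring (0.0388), quantile normalization (0.0418) and without a mean-variance trend (0.0494).

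The summed level of the BH3-only genes was 36.2, 35.8 and 35.9 FPKM in the controls and 45.0 and 47.8 FPKM in the knock-down. PMAIP1 supplied 73.9% ± 0.80 (SD, n = 3) of it in the controls and 75.1% ± 1.5 (SD, n = 2) in the knock-down, so the sum chiefly followed that one gene. Relative to the pro-survival sum, the BH3-only sum was 0.394, 0.412 and 0.406 in the controls and 0.515 and 0.537 in the knock-down. Both knock-down samples were above every control on this ratio, which is a description of mRNA levels and was given no test.

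**Figure D3:**
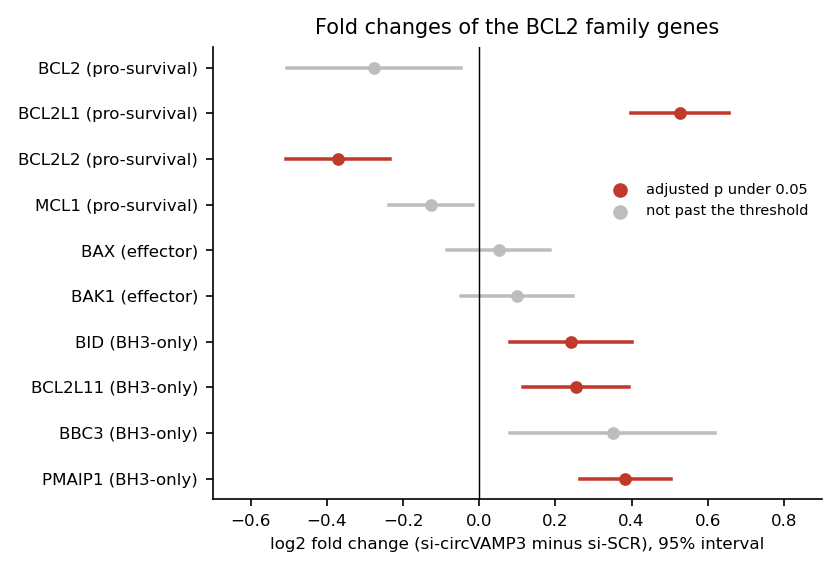
Log2 fold change of each of the 10 BCL2 family genes, si-circVAMP3 minus si-SCR on log2(FPKM + 0.5), as points with the 95% interval of the limma fit as lines, red where the adjusted p was under 0.05. BCL2L1 has the highest value at 0.53 and BCL2L2 the lowest at -0.37, and the intervals of BAX and BAK1 include 0.

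**Figure D4:**
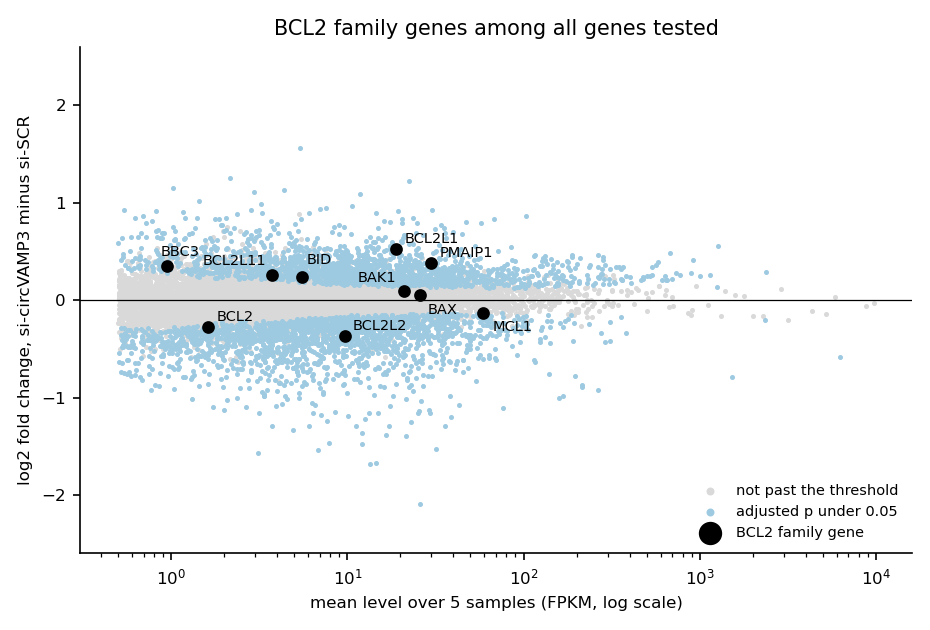
Log2 fold change (si-circVAMP3 minus si-SCR, vertical axis) against the mean level over 5 samples (FPKM, log scale) for the 12245 genes tested, blue where the adjusted p was under 0.05, with the 10 BCL2 family genes as black points. The members lie between -0.37 and 0.53, inside the cloud of all genes, whose quartiles are -0.15 and 0.15.

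The pattern is a set of modest shifts inside a broad response. The median log2 fold change was 0.17 over the 10 members, 0.30 over the 4 BH3-only genes and -0.20 over the 4 pro-survival genes, beside 0.01 over all genes tested. The pro-survival genes ran from -0.37 to 0.53, with 1 called lower and 1 called higher, so their median describes no common shift. BCL2L1, BCL2L2 and PMAIP1 kept their calls under all 14 of those alternatives. BCL2L2 did so only narrowly with either si-circVAMP3 sample left out, and its level is less certain because of the readthrough gene. The description above therefore rests most firmly on BCL2L1 and PMAIP1.

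The promoters of BCL2L1, BCL2L11 and PMAIP1, 3 of the 4 members that rose, are shown as examples picked for their different make-up. Each line is the 250 bases before the gene's start in RefSeq (GRCh38.p14), 5′ to 3′ on the gene's strand, with capitals for a GC box (GGGCGG) or a CCAAT box (CCAAT) on either strand:
BCL2L1: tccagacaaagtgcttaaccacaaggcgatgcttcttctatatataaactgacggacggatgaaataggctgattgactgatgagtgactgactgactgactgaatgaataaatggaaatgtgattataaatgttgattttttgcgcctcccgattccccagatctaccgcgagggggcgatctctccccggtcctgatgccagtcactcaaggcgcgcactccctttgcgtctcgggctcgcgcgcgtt
BCL2L11: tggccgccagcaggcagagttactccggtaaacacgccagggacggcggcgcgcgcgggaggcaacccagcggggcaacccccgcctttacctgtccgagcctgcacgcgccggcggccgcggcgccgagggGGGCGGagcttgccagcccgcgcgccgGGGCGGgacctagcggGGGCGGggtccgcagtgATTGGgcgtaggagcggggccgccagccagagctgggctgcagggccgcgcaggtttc
PMAIP1: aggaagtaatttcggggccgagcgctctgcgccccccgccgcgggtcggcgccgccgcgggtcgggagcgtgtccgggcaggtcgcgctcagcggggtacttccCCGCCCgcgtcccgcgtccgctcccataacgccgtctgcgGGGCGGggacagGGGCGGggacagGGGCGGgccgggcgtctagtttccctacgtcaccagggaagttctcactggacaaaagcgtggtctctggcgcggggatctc
They lie at chr20:31723964-31724213 on the minus strand, chr2:111120664-111120913 on the plus strand and chr18:59899746-59899995 on the plus strand. The PMAIP1 window is 72.8% G and C and holds 4 GC boxes, 3 of them in close succession. The BCL2L11 window is 76.8% G and C and holds 3 GC boxes, 1 CCAAT box and 1 match to GTAAACA, a core bound by FOXO factors. The BCL2L1 window is 50.0% G and C and holds neither box. Of the members not shown, BID, which also rose, had 4 GC boxes. Among those without a call BAK1 had 2 GC boxes and 1 CCAAT box, BAX 1 and 2, BBC3 1 CCAAT box and BCL2 neither. A link between the boxes and the changes was not tested. Of 27305 RefSeq promoters cut to the same 250 bases, 42.3% held a GC box, 33.0% a CCAAT box and 3.0% the letters GTAAACA. The RefSeq starts differ from the gene ends given above for 2 of the 3: the BCL2L11 window lies inside its gene span, downstream of the start, and the BCL2L1 window reaches a little into its span. Such matches describe letters only, and BCL2L2 and MCL1 were not matched in the promoter table.

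Other genes of the pathway were taken from 8 lists chosen for their role, 74 genes in all, of which 58 were in the table and 57 were tested. Of these, 13 were higher and 9 were lower in si-circVAMP3, which is 38.6% called beside 30.4% of all genes tested. The number called was 13 without si-SCR replicate 2 and 8 without either si-circVAMP3 replicate. Their median log2 fold change was 0.02, beside 0.01 over all genes tested. The genes of 7 of the lists are described below.

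Of 13 further BCL2 family genes, 7 were in the table, 2 were called higher and none was called lower (28.6% called, beside 30.4% of all genes tested). BMF, a BH3-only gene whose protein can be held at the cytoskeleton, rose from 2.37 ± 0.24 FPKM (SD, n = 3) to 3.16 ± 0.024 FPKM (SD, n = 2; log2 fold change 0.35, limma adjusted p = 0.0247). BCL2L12, a distant relative of the family, rose from 16.7 ± 1.2 to 20.2 ± 0.35 FPKM (log2 fold change 0.27, limma adjusted p = 0.0230). The BMF call was lost without si-circVAMP3 replicate 1 (limma adjusted p = 0.12) and replicate 2 (0.129), within a range of 0.012 to 0.129 over its alternatives. The BCL2L12 call was lost without si-SCR replicate 2 (limma adjusted p = 0.0693) and without si-circVAMP3 replicates 1 (0.134) and 2 (0.103), within a range of 0.0138 to 0.134. BAD, BOK, BCL2L13, BNIP3 and BNIP3L did not pass, and 6 of the 13, among them BCL2A1, BIK and HRK, were not among the genes of the table.

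Downstream of the mitochondrion, 1 of 8 genes for released factors and membrane channels passed (12.5%, beside 30.4% of all genes tested). AIFM1, which encodes the apoptosis-inducing factor of the intermembrane space, rose from 21.9 ± 0.18 to 25.0 ± 0.89 FPKM (SD, n = 3 and 2; log2 fold change 0.19, limma adjusted p = 0.0191). Its call was lost without si-SCR replicate 2 (limma adjusted p = 0.0615) and without si-circVAMP3 replicates 1 (0.0615) and 2 (0.135), and its lowest value over the alternatives was 0.0141. CYCS, which encodes cytochrome c, measured 80.4, 82.3 and 91.6 FPKM in the controls and 77.4 and 73.7 FPKM in the knock-down, a difference that missed the threshold (limma adjusted p = 0.0973).

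Of 6 apoptosome and caspase genes tested, 3 were higher in si-circVAMP3, beside 14.6% of all genes tested. CASP2, an initiator caspase, measured 4.50, 5.28 and 5.17 FPKM in the controls and 6.96 and 7.49 FPKM in the knock-down (log2 fold change 0.50, limma adjusted p = 0.00637). CASP9, the caspase of the apoptosome, rose from 3.77 ± 0.37 to 4.87 ± 0.33 FPKM (limma adjusted p = 0.0339), and CASP6, an executioner, from 8.59 ± 0.59 to 10.2 ± 0.26 FPKM (limma adjusted p = 0.0355). The CASP2 call was lost without si-circVAMP3 replicate 2 (limma adjusted p = 0.062, the highest of its alternatives, from 0.00108). Among the cases with 1 sample left out, the other calls were lost without si-SCR replicate 2 and without si-circVAMP3 replicates 1 and 2, with limma adjusted p of 0.0788, 0.095 and 0.199 for CASP9 and 0.0964, 0.126 and 0.184 for CASP6. Their lowest adjusted p over the alternatives was 0.0152 and 0.0251.

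Inhibitor of apoptosis proteins block caspases, and 1 of 4 such genes tested passed (25.0%, beside 30.4% of all genes tested). XIAP, a direct caspase inhibitor, was lower at 5.32 and 5.64 FPKM in the knock-down than at 6.37, 6.14 and 6.64 FPKM in the controls (log2 fold change -0.20, limma adjusted p = 0.0470). That call was lost whichever sample was left out, with limma adjusted p of 0.0896, 0.0813 and 0.0693 without si-SCR replicates 1, 2 and 3 and 0.24 and 0.118 without si-circVAMP3 replicates 1 and 2, and it was kept under 4 of 14 alternatives, the lowest value being 0.0258. BIRC5, which encodes survivin, was far more abundant at 76.9 ± 0.91 FPKM in the controls and 75.0 ± 0.28 FPKM in the knock-down and did not pass (limma adjusted p = 0.487).

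In the death receptor pathway 3 of 5 genes tested were higher and none was lower, beside 14.6% higher and 15.8% lower over all genes tested. FADD, the adaptor that joins death receptors to caspase-8, measured 12.3, 11.5 and 12.0 FPKM in the controls and 16.2 and 15.9 FPKM in the knock-down (log2 fold change 0.42, limma adjusted p = 0.00201). TRADD, the adaptor of the TNF receptor, rose from 2.15 ± 0.30 to 3.13 ± 0.067 FPKM (log2 fold change 0.46, limma adjusted p = 0.0192), and the receptor gene TNFRSF1A measured 9.70, 9.25 and 8.05 FPKM in the controls and 12.1 and 12.3 FPKM in the knock-down (log2 fold change 0.42, limma adjusted p = 0.0108). Without si-circVAMP3 replicate 1 or 2 the limma adjusted p was 0.114 and 0.0971 for TRADD and 0.0702 and 0.0791 for TNFRSF1A, whose lowest values over the alternatives were 0.0145 and 0.0037, while FADD kept its call under all 14. TNFRSF10B measured 15.2, 15.7 and 15.6 FPKM in the controls and 14.6 and 14.2 FPKM in the knock-down, below every control but not past the threshold (limma adjusted p = 0.127), and RIPK1 did not pass (limma adjusted p = 0.159). FAS, CFLAR and 5 others of the 12 listed genes were not among the genes of the table.

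Of 7 transcription factors known to act on BH3-only genes, 3 were called (42.9%, beside 30.4% of all genes tested). Of these, 2 were higher and 1 was lower, beside 14.6% higher and 15.8% lower over all genes tested. DDIT3, the stress factor CHOP that acts on BCL2L11 and BBC3, measured 18.9, 18.9 and 17.9 FPKM in the controls and 27.2 and 28.6 FPKM in the knock-down (log2 fold change 0.57, limma adjusted p = 0.000759), and it kept its call under all 14 alternatives. ATF4, its upstream partner in the stress response, was at 211 ± 7.2 FPKM in the controls and 194 ± 3.8 FPKM in the knock-down and did not pass (limma adjusted p = 0.0781). FOXO1 fell from 7.55 ± 0.38 to 6.21 ± 0.28 FPKM (log2 fold change -0.26, limma adjusted p = 0.0241), and lost its call without si-SCR replicate 2 (limma adjusted p = 0.0818) and si-circVAMP3 replicates 1 (0.154) and 2 (0.0801), within a range of 0.0153 to 0.154. RH4 cells carry a PAX3-FOXO1 fusion, and reads from the FOXO1 part of the fusion cannot be told apart here from those of FOXO1 itself.

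Of 5 genes for ubiquitin ligases and a deubiquitinase of MCL1 protein, 2 were called, both lower (beside 30.4% called and 15.8% lower over all genes tested). BTRC, which encodes a ligase substrate receptor, measured 11.3, 10.9 and 11.3 FPKM in the controls and 8.29 and 7.16 FPKM in the knock-down (log2 fold change -0.51, limma adjusted p = 0.00338). USP9X, the deubiquitinase that stabilises MCL1 protein, fell from 14.3 ± 0.57 to 12.5 ± 0.23 FPKM (log2 fold change -0.19, limma adjusted p = 0.0363), and lost its call without si-SCR replicate 2 (limma adjusted p = 0.107) and si-circVAMP3 replicates 1 (0.128) and 2 (0.184), within a range of 0.0152 to 0.184 over 14 alternatives, of which 7 kept the call. HUWE1, FBXW7 and MARCHF5 did not pass.

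**Figure D5:**
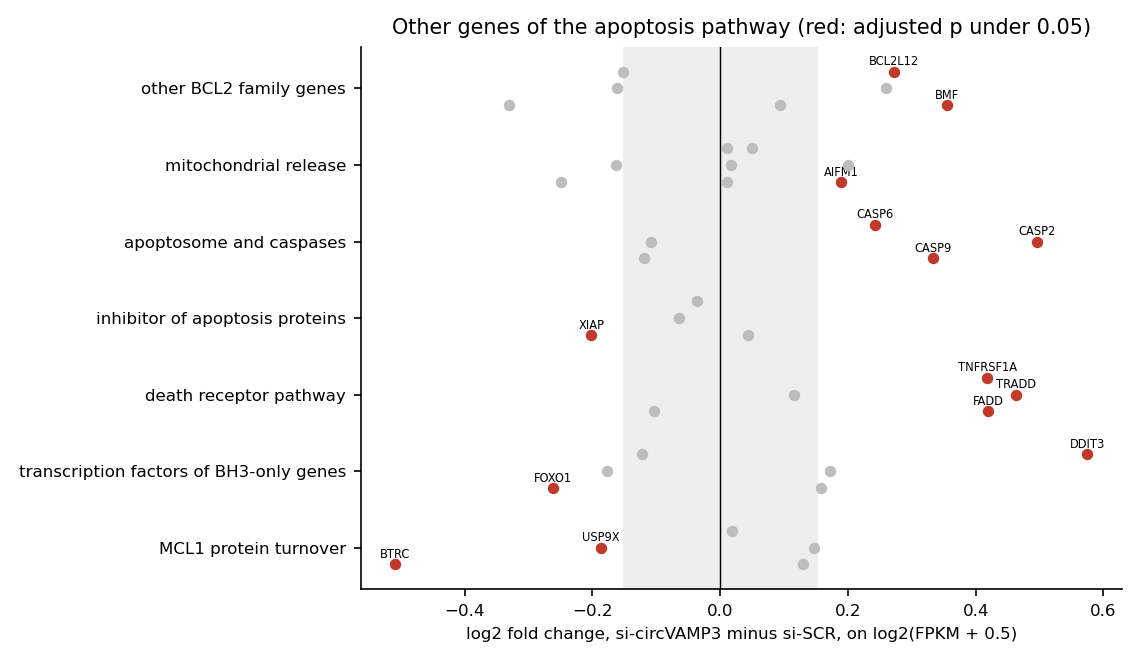
Log2 fold change (si-circVAMP3 minus si-SCR, on log2(FPKM + 0.5)) of other genes tested from 7 lists of the apoptosis pathway, one point per gene, red and named where the adjusted p was under 0.05. The grey band spans the quartiles of all genes tested, -0.15 to 0.15, and the called death receptor genes lie above it.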

How the data were processed

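Poly-A+ RNA of RH4 cells was sequenced in 3 si-SCR and 2 si-circVAMP3 samples, which the study calls biological replicates. The authors deposited FPKM values per gene: reads were demultiplexed with bcl2fastq 2.20.0.422, trimmed with Trimmomatic, aligned with STAR 2.5.2b to GRCh38 and Ensembl 99, counted by strand with HTSeq, filtered on low CPM and scaled with edgeR's rpkm function. Symbols were matched by Ensembl ID for 13783 of 13822 genes. Genes with a mean FPKM of at least 0.5 over all samples were tested with limma 3.58.1 in R 4.3.3 on log2(FPKM + 0.5), 2 groups, with a mean-variance trend, two-sided, Benjamini-Hochberg adjustment over 12245 genes and a threshold of 0.05. Since the values are FPKM, the study's count model was not used.

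Whole reads were recovered from the FPKM steps for 99.98% of genes (within 1e-04 of a whole number), up to a factor that all samples share. Pairs of replicates differed by more than the noise of counting reads (chi-square per gene 3.24 to 10.3), a comparison that covers counting error only. All 5 samples were kept. The analysis was tested on simulated data. Positions and overlaps came from GENCODE 44, sequences from RefSeq and the study's list of siRNAs. The members and lists were chosen with earlier results of these data known. Named are all members, VAMP3 and, of each list, called genes, at most 5 by size of change; 1 list and single called genes are counted but not named or drawn. Single genes without a call, such as CYCS, BIRC5, ATF4, MYOD1 and TNFRSF10B, were added after their values were seen. Alternatives varied the pseudocount, filter, scaling, trend, replicate block, fold limit and samples; limma with voom weights on the recovered reads was added after seeing the data and called 4104 genes.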

Additional observations from a re-analysis of the deposited data

How the results depend on the processing

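No fold change refitted under the alternatives (all members, VAMP3 and the named called genes) changed sign, but the balance of calls over all genes, 1784 higher and 1939 lower, turned to 2004 and 1690 with median-centring. Of the 10 BCL2 family members, 5 were called; the number was 0 with the fold limit of 0.58, at which 466 of all genes tested and 3 genes of the wider lists were called instead of 3723 and 22. Leaving out 1 sample gave 3 to 4 members, 1260 to 4000 genes and 8 to 24 genes of the wider lists, and a VAMP3 log2 fold change of -0.31 to -0.27. With 1 si-circVAMP3 sample left, that sample is assumed to vary like the controls. With the replicate number as a block, 3 members, 18 genes of the wider lists and 3122 genes were called, and the calls of BID (limma adjusted p = 0.0923), BCL2L11 (0.0574), BMF (0.0511), CASP9 (0.0631), CASP6 (0.0727), XIAP (0.117) and USP9X (0.0904) were lost; the labels do not say that the numbers pair the samples, and the differences between replicates 1 and 2 correlated at -0.133 across genes between the groups, so the block is only an alternative. As si-SCR replicate 3 has no si-circVAMP3 sample of the same number, the block leaves it no weight in the fold changes. The fold changes with the block therefore equal those without that sample, and only their errors and p differ. Other pseudocounts, filters and scalings gave 5 or 6 members. The 2 knock-down samples limit every interval, and depth limits BBC3, which had 53 to 117 reads per sample.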
